A study of Mus musculus with 8 samples.

Results

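The expression of 9 genes of the Hedgehog pathway was followed through 4 mouse cell populations, namely the ligands Dhh, Ihh and Shh, the receptor Ptch1, the transducer Smo, the ligand-binding antagonist Hhip and the transcription factors Gli1, Gli2 and Gli3. The genes were chosen by their role, with earlier results of these data known, and all 9 were among the 46078 Ensembl gene IDs counted in the 8 libraries. The tcESC line is an XY C57BL/6 ESC line that carries tesco-cfp, a reporter in which the testis enhancer of Sox9 drives CFP, and it was kept in medium with the Wnt activator CHIR99021 and the MEK inhibitor PD0325901. The tc;Sf1ESC line is 1 clone derived from it, selected with G418 and constitutively expressing a transgene of Sf1 (gene symbol Nr5a1). SCLCs were the CFP-positive cells sorted at day 12 from cultures of tc;Sf1ESCs that received CHIR99021 and the retinoic acid receptor agonist TTNPB, followed by CHIR99021, BMP7 and FGF9, and they therefore carried both transgenes. todPGCLCs were GFP-positive cells sorted at day 6 from testicular organoids, in which epiblast-like cells of an XY Prdm1-gfp ESC line of the same strain had been aggregated with cells of such testis-directed cultures. Each group had 2 libraries, described as biological duplicates, and p-values measure only the spread between such libraries. Since the todPGCLCs came from another ESC line, line and cell type cannot be told apart in any comparison that involves them.

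Hedgehog ligands are secreted proteins that bind PTCH1 on the receiving cell. Without ligand, PTCH1 keeps SMO inactive. With ligand, SMO accumulates in the primary cilium and the GLI factors are converted from repressors into activators. GLI2 acts mainly as the activator and GLI3 mainly as the repressor, whereas the Gli1, Ptch1 and Hhip genes are themselves induced by the signal, so that their transcripts are commonly read as its output. DHH is the ligand of the testis, where Sertoli cells release it and Leydig and peritubular precursors respond to it. IHH is best known from cartilage, gut and the visceral endoderm of the early embryo, and SHH from the notochord, floor plate and limb bud.

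The libraries held between 25411033 and 30680191 counts on genes, so that 3 counts correspond to 0.0978 to 0.118 CPM (counts scaled by the library total on genes). Such limits cover counting error alone. Both libraries of every group differed by more than sampling noise, and chi-square divided by its degrees of freedom was 1.44 for tc;Sf1ESCs, 4.04 for tcESCs, 9.86 for todPGCLCs and 30.6 for SCLCs. Nr5a1 had 1 and 0 counts in tcESCs, 52 and 30 in tc;Sf1ESCs and 341 and 535 in SCLCs. The transgene was absent from tcESCs and carried by both tc;Sf1ESCs and SCLCs. Counts per gene do not separate its transcript from that of the gene itself. Sertoli markers were uneven in SCLCs. Their summed CPM over 10 Sertoli genes was 442 and 450 against 10.7 to 12.5 in the ESC libraries, most of it Gata4, whereas Fshr was at 0 counts in both libraries and Amh had 10 and 22 counts against 15 to 24 in ESCs. Over 10 visceral endoderm genes the summed CPM was 1803 and 3290 in SCLCs and 9.78 to 31.8 in the other 6 libraries. Over 8 germ cell genes the summed CPM was 836 and 839 in todPGCLCs and 144 to 372 in the other 6 libraries. Of these genes, Prdm1 had 4919 and 5140 counts in todPGCLCs, above every other library, whereas Nanos3 had 60 and 109 against 236 and 251 in tc;Sf1ESCs, Prdm14 had 1403 and 1200 against 1567 and 1894 in tcESCs, and Dazl had 5351 and 2778 against 4357 and 5876 in tcESCs.

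The populations differed first in which ligand they transcribed. Ihh (ENSMUSG00000006538, chr1:74945315-74951672, minus strand, GRCm38) had 82.2 and 123 CPM in the SCLC libraries. It was at 0.315 and 0.359 CPM in tcESCs, at 0.463 and 0.397 CPM in tc;Sf1ESCs, and at 0.109 and 0.715 CPM in todPGCLCs. Both SCLC libraries thus lay far above the other groups, which were all within 10-fold of the level of 3 counts, and the todPGCLC libraries spanned those of both ESC lines. In counts, this was 2178 and 3567 in SCLCs against 3 to 19 elsewhere. The log2 fold change was 7.93 ± 0.29 (SE) against tc;Sf1ESCs (adjusted p = 8.23e-07, quasi-likelihood test of edgeR, Benjamini-Hochberg adjusted, as for all p-values here unless another tool is named), 8.29 ± 0.30 against tcESCs (adjusted p = 7.8e-07) and 8.09 ± 0.40 against todPGCLCs (adjusted p = 4.94e-07). The size of the last rested on the todPGCLC libraries, since it was 7.28 without library 1 and 9.94 without library 2. By TPM, which corrects for transcript length, Ihh ranked 1971 and 1167 among 45229 genes in the SCLC libraries, and it made up 99.6% and 99.9% of the summed TPM of the 3 ligands there. The other 3 groups could not be ordered, as adjusted p was 0.695 between the ESC lines and 0.847 and 0.863 between todPGCLCs and tcESCs or tc;Sf1ESCs.

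Dhh (ENSMUSG00000023000, chr15:98891152-98898540, minus strand) was close to the limit of measurement everywhere. Its counts were 5 and 7 in tcESCs, 11 and 24 in tc;Sf1ESCs, 5 and 1 in SCLCs, and 17 and 12 in todPGCLCs. The means were 0.112 ± 0.11 CPM (SD, n = 2) in SCLCs and 0.646 ± 0.31 CPM (SD, n = 2) in tc;Sf1ESCs. The tc;Sf1ESC and todPGCLC counts overlapped. Dhh did not pass the filter on low counts in the fit of the 6 tcESC, tc;Sf1ESC and SCLC libraries. In the fit of all 8 libraries, an alternative chosen for this gene after its counts were seen, the log2 fold change between SCLCs and tc;Sf1ESCs was -2.49 ± 0.67 (SE). Between tc;Sf1ESCs and tcESCs it was 1.60 ± 0.58 (adjusted p = 0.0655), which was called only without the filter (adjusted p = 0.0408), and between SCLCs and tcESCs it was -0.89 ± 0.80 (adjusted p = 0.337). The todPGCLCs were not separated from either ESC line, with adjusted p = 0.104 against tcESCs and adjusted p = 0.548 against tc;Sf1ESCs. Between SCLCs and todPGCLCs it was -2.13 ± 0.69. The call on this difference was lost with DESeq2 and without SCLC library 2 (-1.35), and the value was -3.66 without SCLC library 1. Dhh would not have passed the filter of the 8-library fit without the todPGCLC libraries or without the tc;Sf1ESC libraries, so its differences between SCLCs and these groups rest on a gene admitted by the groups where it was higher. They are therefore given with no p-value. Dhh and Rhebl1 share 546 exonic bases on the same strand, and reads that fit both genes are not in the counts of either, so the Dhh counts can miss a part of the transcript.

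Shh (ENSMUSG00000002633, chr5:28456815-28467256, minus strand) had more than 10 counts only in todPGCLCs, with 52 and 194. The other 6 libraries had 2 to 10 counts. In CPM the todPGCLC libraries stood at 1.89 and 7.30, the tcESCs at 0.394 and 0.196, the tc;Sf1ESCs at 0.154 and 0.325, and the SCLCs at 0.189 and 0.0687, so the todPGCLCs overlapped with no other group but differed from each other by more than 3-fold. Shh passed the count filter only through these 2 libraries, which fixed its direction, so its differences are described with no p-value. The log2 fold change was 3.90 ± 0.73 (SE) against tcESCs, 4.13 ± 0.75 against tc;Sf1ESCs and, for SCLCs against todPGCLCs, -5.002 ± 0.83. Without todPGCLC library 2 these were 2.63, 2.86 and -3.73, and without library 1 they were 4.58, 4.81 and -5.68. Against tc;Sf1ESCs the value was 4.75 without tc;Sf1ESC library 2, and SCLCs stood at -5.83 without SCLC library 1. Among ligand transcripts, Shh made up 79.0% and 88.4% of the summed TPM in todPGCLCs.

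**Figure D1:**
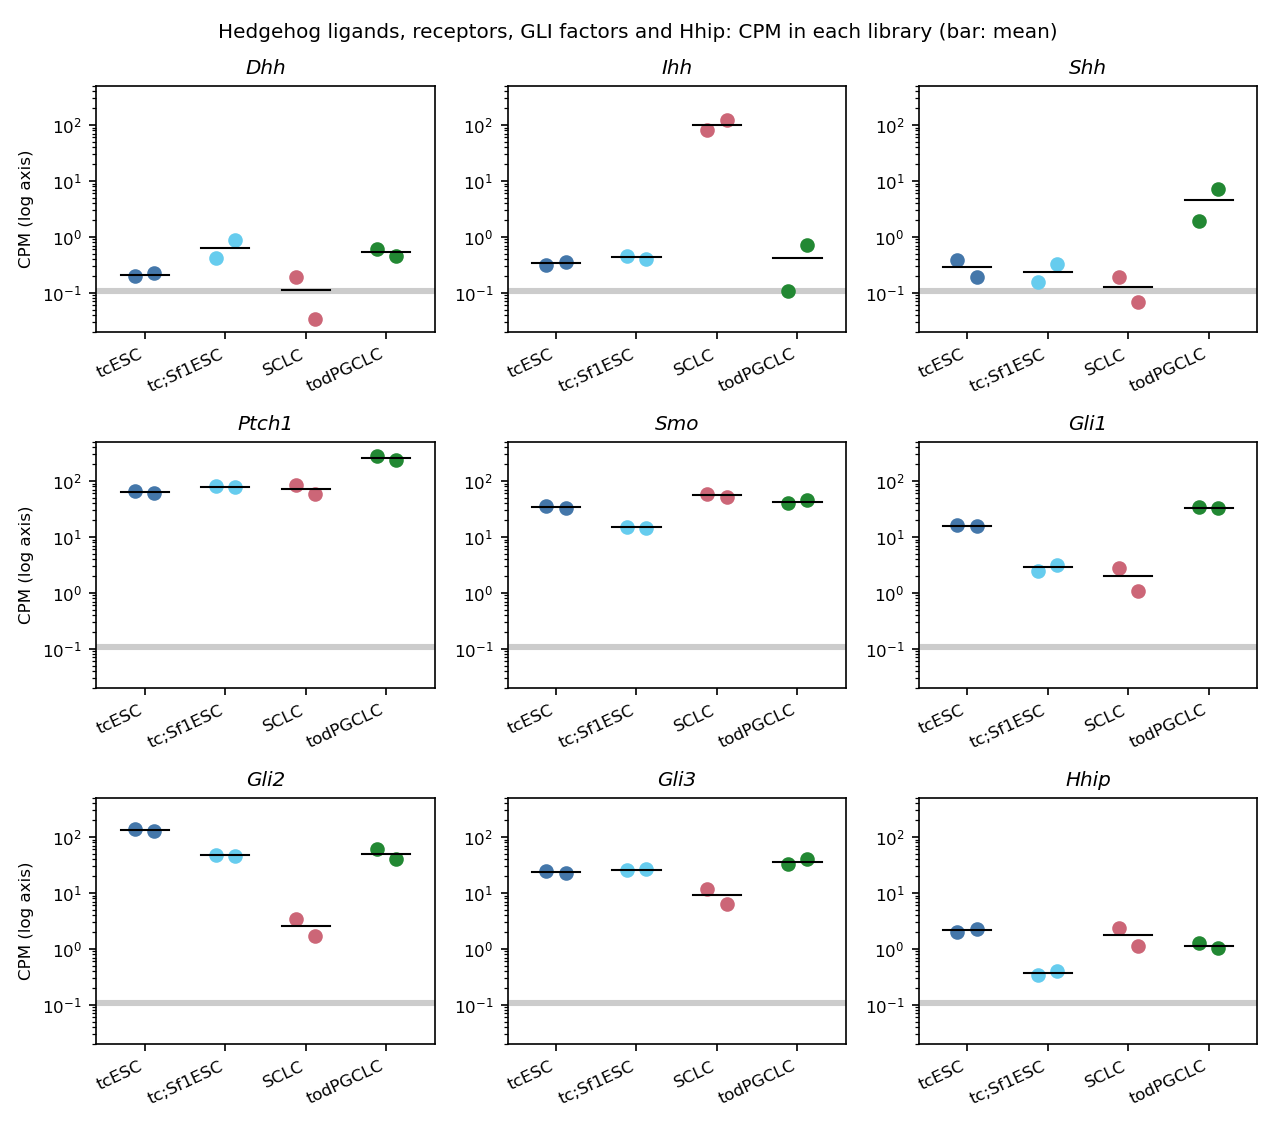
Expression of the 9 genes in CPM (log axis) in each of the 8 libraries. Points are libraries, the horizontal bar is the mean of a group, and the grey band is the level of 3 counts (0.0978 to 0.118 CPM). Ihh stands out in SCLCs (82.2 and 123 CPM), Shh, Ptch1 and Gli1 are highest in todPGCLCs, and Gli2 falls from tcESCs to SCLCs.

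The genomic sequence upstream of Ihh, Ptch1 and Gli2 was read because these genes had, respectively and among the 9, the largest rise in SCLCs, the largest rise in todPGCLCs among the receptors, and the largest fall in SCLCs. The 250 bases before the RefSeq start are given 5′ to 3′ on the strand of the gene (GRCm38.p6), and capitals mark the letters CCACCC, the core of the GLI binding motif, on either strand (GGGTGG on the reverse strand).
Ihh, chr1:74951673-74951922, minus strand: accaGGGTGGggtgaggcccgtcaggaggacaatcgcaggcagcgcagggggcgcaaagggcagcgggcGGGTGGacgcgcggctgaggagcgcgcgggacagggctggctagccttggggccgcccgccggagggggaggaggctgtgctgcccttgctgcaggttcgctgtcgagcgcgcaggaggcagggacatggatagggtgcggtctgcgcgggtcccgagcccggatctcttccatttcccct
Ptch1, chr13:63565736-63565985, minus strand: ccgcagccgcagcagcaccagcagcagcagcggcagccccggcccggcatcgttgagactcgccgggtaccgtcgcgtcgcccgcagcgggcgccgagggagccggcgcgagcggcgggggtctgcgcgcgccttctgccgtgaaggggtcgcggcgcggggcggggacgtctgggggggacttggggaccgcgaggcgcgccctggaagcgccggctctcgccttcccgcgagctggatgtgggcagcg
Gli2, chr1:119053620-119053869, minus strand: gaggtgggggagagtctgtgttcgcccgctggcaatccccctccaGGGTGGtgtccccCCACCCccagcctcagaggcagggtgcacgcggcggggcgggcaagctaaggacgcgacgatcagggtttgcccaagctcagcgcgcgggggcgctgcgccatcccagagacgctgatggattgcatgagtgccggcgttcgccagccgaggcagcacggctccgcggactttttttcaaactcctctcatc
The Ihh window holds CCACCC at 246 to 241 and at 181 to 176 bases before the start, both on the reverse strand, and the Gli2 window holds it at 205 to 200 (reverse) and 192 to 187 (forward). The Ptch1 window, which lies before a RefSeq start inside the longer GENCODE gene, has none. RefSeq windows were matched for 7 of the 9 genes, not for Shh and Gli1, and CCACCC was present in 6 of these 7, against 28.1% of all 32851 windows of the same length. The full letters GACCACCCA, which contain that core, were in none of the 7 and in 0.225% of all windows. The FOXA core TGTTTAC and the GATA core AGATAA were in none of the 7, against 3.17% and 9.99% of all windows. These matches describe letters only, and no binding was measured.

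Ptch1 (ENSMUSG00000021466, chr13:63508328-63573598, minus strand), the ligand receptor and itself a target of the pathway, was the most abundant of the receptors in todPGCLCs. The todPGCLC libraries had 276 and 237 CPM, against 67.6 and 62.4 in tcESCs, 82.7 and 76.8 in tc;Sf1ESCs, and 86.4 and 59.8 in SCLCs. The todPGCLCs lay above all other libraries, whereas the groups below them overlapped in part. Ptch1 rose by 1.91 ± 0.16 (log2, SE) in todPGCLCs against tcESCs (adjusted p = 1.52e-05) and by 1.60 ± 0.15 against tc;Sf1ESCs (adjusted p = 3.13e-05), and it was 1.68 ± 0.15 lower in SCLCs than in todPGCLCs (adjusted p = 1.71e-05). Among the other 3 groups no difference passed the test, with log2 fold changes of 0.31 for tc;Sf1ESCs against tcESCs (adjusted p = 0.184), -0.08 for SCLCs against tc;Sf1ESCs (adjusted p = 0.685) and 0.23 for SCLCs against tcESCs (adjusted p = 0.224). The SCLC libraries lay on either side of the 62.4 to 82.7 CPM of the 4 ESC libraries.

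Smo (ENSMUSG00000001761, chr6:29735503-29761365, plus strand), which passes the signal from PTCH1 to the GLI factors, was lowest in tc;Sf1ESCs. It had 35.9 and 32.9 CPM in tcESCs, 15.0 and 14.7 in tc;Sf1ESCs, 57.9 and 52.7 in SCLCs, and 40.5 and 45.1 in todPGCLCs, and no group overlapped with another. Smo fell by 1.19 ± 0.09 (log2, SE) from tcESCs to tc;Sf1ESCs (adjusted p = 0.000243) and was 1.94 ± 0.09 higher in SCLCs than in tc;Sf1ESCs (adjusted p = 2.29e-06). Against tc;Sf1ESCs, todPGCLCs had 1.44 ± 0.10 more (adjusted p = 4.41e-06). The other differences were smaller than 2-fold. They were 0.75 ± 0.09 for SCLCs against tcESCs (adjusted p = 0.000179), 0.24 ± 0.09 for todPGCLCs against tcESCs (adjusted p = 0.046), and 0.50 ± 0.09 for SCLCs against todPGCLCs (adjusted p = 0.0011). Over the genes of chromosome 6 that were tested, the median log2 value was -0.31 between tc;Sf1ESCs and tcESCs, -0.30 between SCLCs and tcESCs and -0.29 between todPGCLCs and tcESCs. The part of this shift in the Smo values was not tested.

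Hhip (ENSMUSG00000064325, chr8:79965851-80058006, minus strand) encodes a membrane protein that binds and sequesters the ligands. It was a weakly expressed gene with 52 and 71 counts in tcESCs, 9 and 11 in tc;Sf1ESCs, 63 and 33 in SCLCs, and 35 and 27 in todPGCLCs. In CPM these were 2.05 and 2.31, 0.347 and 0.397, 2.38 and 1.13, and 1.27 and 1.02. The tc;Sf1ESCs were below every other library. Hhip fell by 2.52 ± 0.44 (log2, SE) from tcESCs to tc;Sf1ESCs (adjusted p = 0.00524), a call lost by a small margin without tcESC library 2 (adjusted p = 0.0532) or without tc;Sf1ESC library 1 (adjusted p = 0.0502). It was 2.26 ± 0.45 higher in SCLCs than in tc;Sf1ESCs (adjusted p = 0.00286; 1.66 without SCLC library 1). SCLCs and tcESCs differed by -0.26 ± 0.36 (adjusted p = 0.536), with -0.87 without SCLC library 1 and 0.18 without library 2. Chromosome 8, on which Hhip lies, moved the other way from Hhip between the ESC lines, with a median of 0.47 over its genes, and the median was 0.58 between SCLCs and tcESCs.

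The calls on Hhip in todPGCLCs depended on the libraries and the tool. Against tcESCs the log2 fold change was -1.002 ± 0.36 (2.002-fold lower, adjusted p = 0.038), just past the 2-fold limit, and the call was lost with DESeq2 (adjusted p = 0.0852) and on leaving out tcESC library 1 (-1.13), tcESC library 2 (-0.96), todPGCLC library 1 (-1.17) or todPGCLC library 2 (-0.84). Against tc;Sf1ESCs it was 1.52 ± 0.45 (adjusted p = 0.016). That call was lost without tc;Sf1ESC library 1 (1.40), without tc;Sf1ESC library 2 (1.60) and without todPGCLC library 1 (1.35). Between SCLCs and todPGCLCs it was 0.74 ± 0.37 (adjusted p = 0.102), and it was called without SCLC library 2 (1.19, adjusted p = 0.00553) and fell to 0.13 without SCLC library 1. The median over chromosome 8 was -0.54 for todPGCLCs against tc;Sf1ESCs and 0.54 for SCLCs against todPGCLCs.

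Of the GLI factors, Gli1 (ENSMUSG00000025407, chr10:127329882-127341974, minus strand), an activator whose own transcription follows the signal, was highest in todPGCLCs. It had 16.3 and 15.5 CPM in tcESCs, 2.51 and 3.22 in tc;Sf1ESCs, 2.83 and 1.10 in SCLCs, and 34.0 and 32.6 in todPGCLCs. The tcESCs came next, while tc;Sf1ESCs and SCLCs overlapped at the lowest level. Gli1 fell by 2.45 ± 0.35 (log2, SE) from tcESCs to tc;Sf1ESCs (adjusted p = 0.00235) and by 2.96 ± 0.36 from tcESCs to SCLCs (adjusted p = 0.000245; -3.76 without SCLC library 1). SCLCs and tc;Sf1ESCs differed by -0.51 ± 0.39 (adjusted p = 0.274), which was 0.0230 without SCLC library 2 and -1.31, then called, without SCLC library 1.

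Gli1 was 3.45 ± 0.30 higher on the log2 scale in todPGCLCs than in tc;Sf1ESCs (adjusted p = 1.69e-05) and 3.96 ± 0.31 lower in SCLCs than in todPGCLCs (adjusted p = 6.82e-06; -4.77 without SCLC library 1). Against tcESCs the todPGCLC value was 0.997 ± 0.26 (adjusted p = 0.00887). At 1.995-fold it stood just under the limit of 2-fold and was not called, though it was without todPGCLC library 2 (1.04). A stretch of 62 exonic bases of Gli1 lies opposite Arhgap9, which had at most 241 counts in a library, and the strand setting of the counting is not given in the sources used here. On the TPM scale, which allows levels of different genes to be set side by side, SCLCs had 128 ± 36 TPM of Ihh and 1.49 ± 0.92 TPM of Gli1 (SD, n = 2), and todPGCLCs had 0.491 ± 0.51 TPM of Ihh, 5.86 ± 4.9 TPM of Shh and 24.2 ± 0.85 TPM of Gli1 (SD, n = 2). In these bulk samples fewer cells that express a gene and less RNA per cell cannot be told apart.

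Gli2 (ENSMUSG00000048402, chr1:118834132-119053619, minus strand), the main activator, had its highest level in tcESCs and fell in steps. It had 138 and 128 CPM in tcESCs, 47.6 and 46.2 in tc;Sf1ESCs, 60.5 and 40.6 in todPGCLCs, and 3.47 and 1.68 in SCLCs. The SCLC libraries lay more than 10-fold below every other library, and the todPGCLC libraries spanned those of tc;Sf1ESCs. Gli2 fell by 1.49 ± 0.18 (log2, SE) from tcESCs to tc;Sf1ESCs (adjusted p = 0.00113), and by 4.15 ± 0.23 from tc;Sf1ESCs to SCLCs (adjusted p = 4.85e-06). Against tcESCs it was 5.64 ± 0.23 lower in SCLCs (adjusted p = 1.33e-06), a 49.9-fold difference. In todPGCLCs it was 1.47 ± 0.21 lower than in tcESCs (adjusted p = 0.000382), and 0.02 ± 0.21 from the tc;Sf1ESC level (adjusted p = 0.939). SCLCs were 4.18 ± 0.28 below todPGCLCs (adjusted p = 2.63e-06; -4.76 without SCLC library 1).

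Gli3 (ENSMUSG00000021318, chr13:15463235-15730026, plus strand), the main repressor, varied least among the GLI factors. It had 24.9 and 23.0 CPM in tcESCs, 25.7 and 26.6 in tc;Sf1ESCs, 11.8 and 6.39 in SCLCs, and 32.4 and 39.8 in todPGCLCs. Only the SCLCs stood apart by the test. Gli3 was 1.47 ± 0.25 (log2, SE) lower in SCLCs than in tc;Sf1ESCs (adjusted p = 0.00124) and 1.86 ± 0.24 lower than in todPGCLCs (adjusted p = 0.000122). Against tcESCs it was 1.33 ± 0.25 lower (adjusted p = 0.00205), a difference that came to -0.96, under the 2-fold limit, without SCLC library 2. The ESC lines differed by 0.14 ± 0.23 (adjusted p = 0.692), and todPGCLCs by 0.52 ± 0.22 from tcESCs (adjusted p = 0.0696) and by 0.38 ± 0.22 from tc;Sf1ESCs (adjusted p = 0.164).

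The make-up of the GLI transcripts differed between the groups. The summed TPM of Gli1, Gli2 and Gli3 was 96.7 and 88.2 in tcESCs, 36.0 in both tc;Sf1ESC libraries, 8.75 and 4.32 in SCLCs, and 69.3 and 60.1 in todPGCLCs. Gli2 took 77.5% and 77.2% of this sum in tcESCs and 68.5% and 66.3% in tc;Sf1ESCs. In SCLCs it took 21.9% and 21.7%, and Gli3 held the largest share with 53.5% and 58.9%. In todPGCLCs Gli1 reached its largest share, 35.8% and 39.3%, and Gli2 had 46.4% and 35.7%. The summed TPM of the ligands ran in a different order, with 103 and 154 in SCLCs, 3.06 and 10.5 in todPGCLCs and 0.870 to 1.57 in the ESC libraries.

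**Figure D2:**
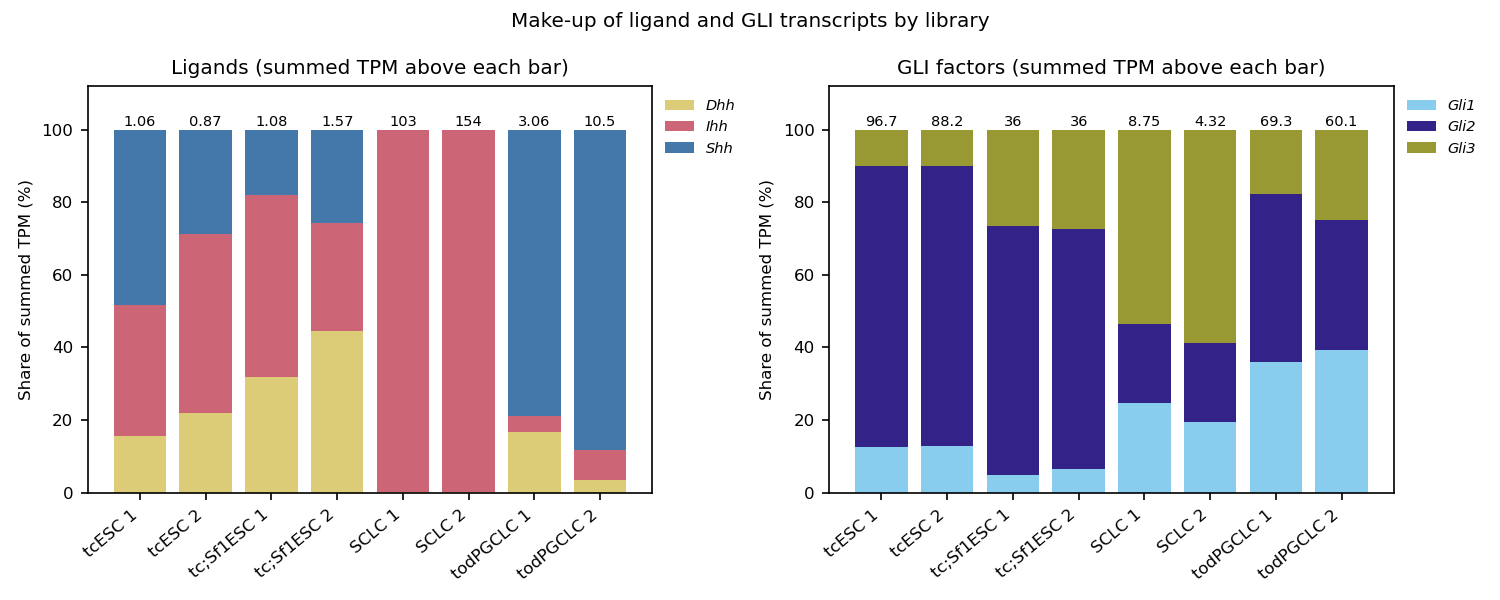
Share (%) of each ligand in the summed TPM of Dhh, Ihh and Shh (left) and of each factor in the summed TPM of Gli1, Gli2 and Gli3 (right), with 1 bar per library and the summed TPM above it. Ihh fills both SCLC bars (99.6% and 99.9%), Shh leads in todPGCLCs (79.0% and 88.4%), and Gli3 takes the largest share of the GLI sum in SCLCs (53.5% and 58.9%) where that sum is lowest.

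Of the 7 genes tested between tc;Sf1ESCs and tcESCs, 4 were lower (Smo, Gli1, Gli2 and Hhip), none was higher, and Ihh (log2 fold change 0.35), Ptch1 (0.31) and Gli3 (0.14) did not pass. Without the filter on low counts Dhh was also called, and it was higher (1.60, adjusted p = 0.0408). That fit took its spread almost wholly from a value shared by all genes. The weight of this shared value, in prior degrees of freedom, was 2305, against 4.56 in the filtered fit of all 8 libraries. With DESeq2 on all 8 libraries adjusted p for Dhh was 0.226. The background in this comparison was 5.63% of 16481 genes called lower and 6.04% higher, 11.7% in all. The median log2 fold change of the 7 was -1.19 against 0.000768 over all genes tested. Here and throughout, called means a difference of more than 2-fold with adjusted p below 0.05. The tc;Sf1ESCs are a single clone, so the transgene and the selection of the clone cannot be told apart.

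From tc;Sf1ESCs to SCLCs, 3 of the 7 genes rose (Ihh, Smo and Hhip) and 2 fell (Gli2 and Gli3), where 24.1% of all genes were called higher and 18.1% lower. Against tcESCs, only Ihh was called higher, while Gli1, Gli2 and Gli3 were lower, with 24.3% and 18.3% of all genes called in these directions. The medians were -0.08 and -0.26, and those over all genes tested 0.0163 and 0.0459. The 5 and 4 called of 7 stand beside 42.2% and 42.7% of all genes called in either direction.

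In the fit with todPGCLCs all 9 genes passed the filter, Shh and Dhh only with the todPGCLC libraries, and both are left out of the counts that follow. Of the other 7, Ptch1 was higher and Gli2 and Hhip lower than in tcESCs, with 18.1% of 16707 genes called higher and 11.2% lower (29.4% in all). Against tc;Sf1ESCs, 4 were higher (Ptch1, Smo, Gli1 and Hhip) and none lower, where 19.4% of genes were called higher and 13.3% lower (32.7% in all). Between SCLCs and todPGCLCs, Ihh was higher in SCLCs and 4 genes were lower (Ptch1, Gli1, Gli2 and Gli3), with 19.5% and 18.5% of genes called in these directions and 38% in all. These comparisons share libraries and are not independent of each other.

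**Figure D3:**
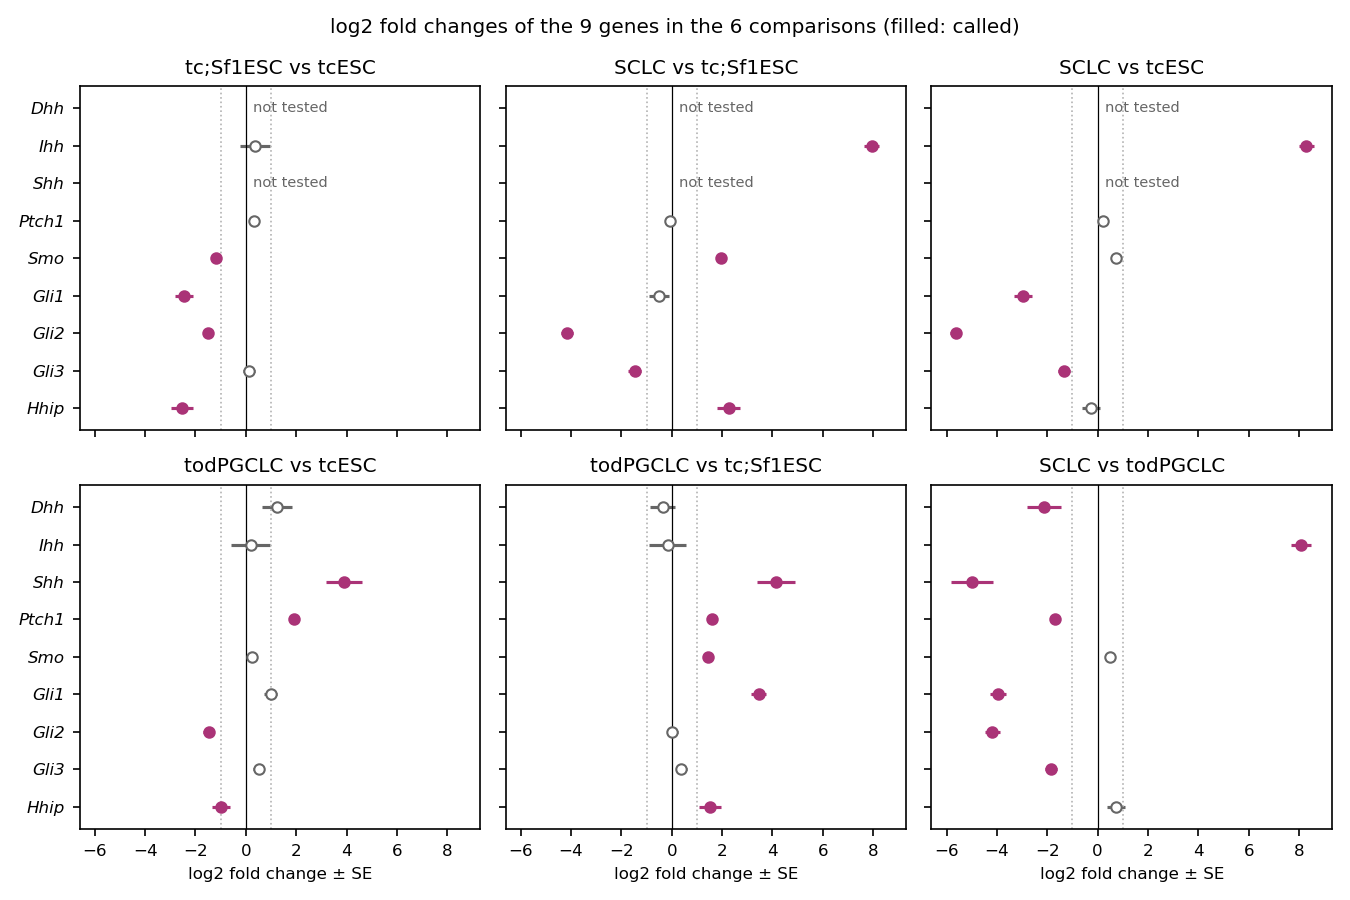
log2 fold changes (x axis) with SE bars for the 9 genes in the 6 comparisons. Filled points are called (more than 2-fold, adjusted p below 0.05) and dotted lines mark 2-fold. Dhh and Shh were not tested in the fit of 6 libraries, and both passed the filter of the 8-library fit only with the todPGCLC libraries. Ihh lies near 8 wherever SCLCs are compared, and Gli2 is lower in SCLCs by 4.15 to 5.64.

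The ligands were set beside markers of cell types that are known to make them. These lists were chosen with earlier results of these data known, so they are no independent support. All 10 visceral endoderm genes were above 3 counts in both SCLC libraries and were called higher there than in each other group, alongside Ihh. Of all genes tested, 24.1% were called higher in SCLCs than in tc;Sf1ESCs, 24.3% than in tcESCs and 19.5% than in todPGCLCs. Ttr, Afp and Apoa1 passed the filter of the 6-library fit only through the SCLC libraries, so their calls against the ESC lines were fixed by the filter, and the same holds in the 8-library fit for Ttr and Apoa1 against todPGCLCs. Ttr, for instance, had 1240 and 3411 counts in SCLCs, 0 in every ESC library and 15 in both todPGCLC libraries, and Cubn, an endocytic receptor, had 27982 and 61312 counts in SCLCs. SCLC library 2 had the higher level of Ihh and also the higher summed marker level, 3290 against 1803 CPM. SCLC library 1 had the higher summed level of 7 pluripotent cell genes, 599.7 against 335 CPM, and also the higher levels of Ptch1, Gli1, Gli2, Gli3 and Hhip. Other lists also held genes that were high in SCLCs. Over 10 Leydig and interstitial genes the summed CPM was 778 and 910.4 in SCLCs and 13.7 to 29.2 elsewhere, most of it Pdgfra (735 and 872 CPM). A sum carried by 1 gene does not tell which cell type made it. In the same libraries Hsd3b1 had 0 and 2 counts, and Insl3 had 20 and 34 against 47 to 77 in the ESC libraries. Of 8 tested, 5 were called higher and 2 lower than in tc;Sf1ESCs, where 18.1% of all genes were lower. Against tcESCs, 4 of the 8 were higher and 1 lower, where 18.3% of all genes were lower. Of these 8, Cyp11a1, Cyp17a1, Acta2 and Myh11 passed the filter only through the SCLC libraries. The endothelial gene Cdh5 had 29.6 and 70.2 CPM in SCLCs and 1 to 3 counts in the ESC libraries, and it too passed only through SCLCs, while the summed CPM of the 6 endothelial genes was 108 and 100.03 against 118 to 147 in ESCs. The Sertoli genes, the known context of Dhh, were uneven, with Gata4 at 11011 and 12551 counts in SCLCs, Sox9 at 206 and 130, Inha at 210 and 270, and Fshr at 0. Of the 7 tested, 5 were called higher and none lower than in each ESC line. Among them Sox9, Inha and Cldn11 passed the filter of that fit only through the SCLC libraries. Against todPGCLCs 3 were higher and 2 lower, beside 19.5% and 18.5% of all genes. Wt1 had 60 and 23 counts in SCLCs against 332 and 293 in todPGCLCs, and Aard 154 and 48 against 1249 and 1003. The part of these markers in the ligand levels was not tested.

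For Shh the 7 markers of notochord, node and gut were used. Their summed CPM in todPGCLCs was 28.0 and 52.4, against 33.9 to 56.2 in the ESC libraries, where Cdx1 had 679 to 1090 counts against 82 and 109 in todPGCLCs. In SCLCs, where Shh had 5 and 2 counts, the sum was 27.1 and 44.3. Vil1 and Foxj1 were higher in both SCLC libraries than in todPGCLCs, T, Chrd, Cdx1 and Noto were lower, and Krt20 overlapped. Of the 6 tested, 4 were called higher and 1 lower (Cdx1) in todPGCLCs against each ESC line, with T, Foxj1, Krt20 and Vil1 higher than in tcESCs and Foxj1, Chrd, Krt20 and Vil1 higher than in tc;Sf1ESCs. Of all genes tested, 18.1% were called higher and 11.2% lower than in tcESCs, and 19.4% and 13.3% than in tc;Sf1ESCs. Krt20 passed the filter only with the todPGCLC libraries. Noto, which is restricted to the notochord and node, had 3 and 8 counts in todPGCLCs and 0 in the other 6 libraries. From todPGCLC library 1 to library 2, Shh went from 52 to 194 counts, T from 286 to 716 and Chrd from 115 to 280. The other list members went from 82 to 109 (Cdx1), from 21 to 34 (Krt20), from 151 to 159 (Foxj1) and from 113 to 87 (Vil1). The part of such cells in the Shh level was not tested.

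**Figure D4:**
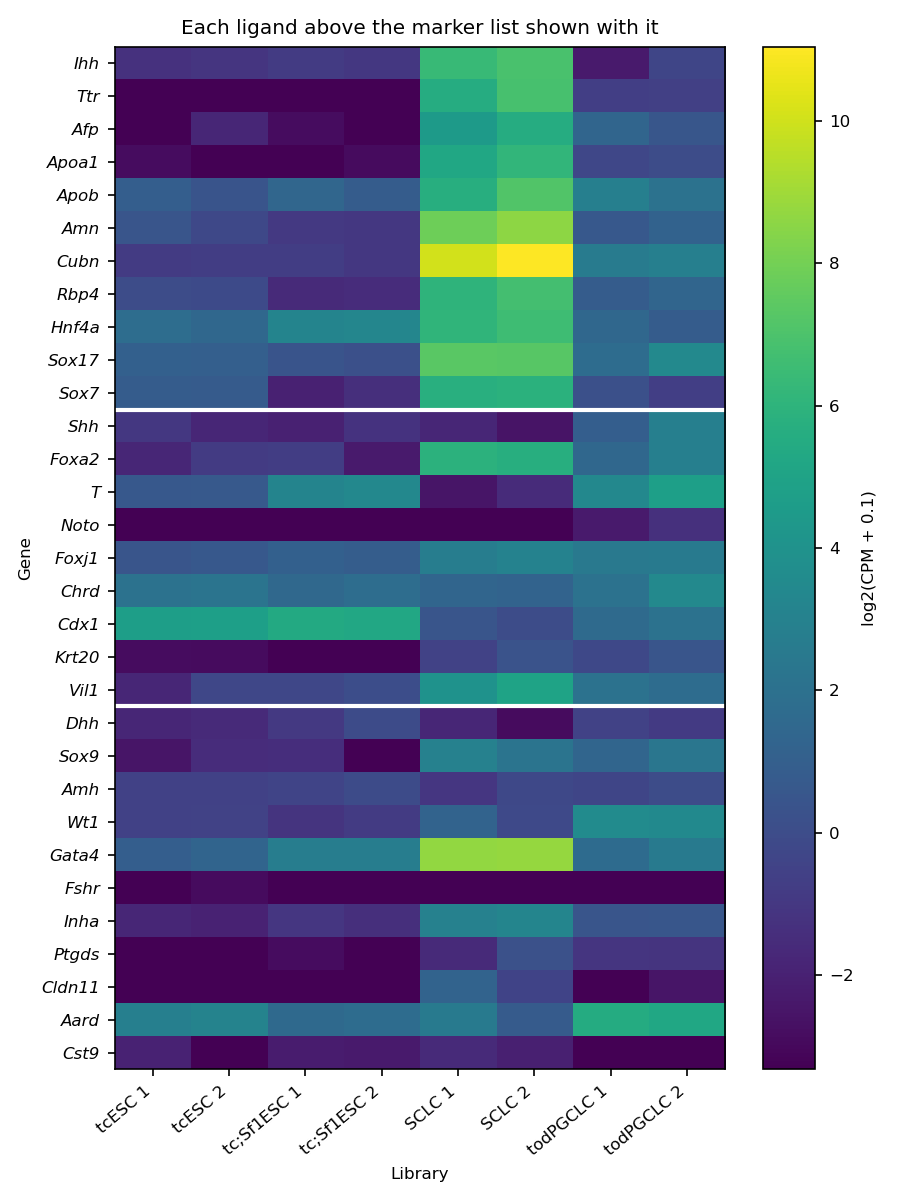
Expression as log2(CPM + 0.1) of each ligand with the marker genes listed under it, genes in rows and libraries in columns (blocks from top: Ihh with visceral endoderm, Shh with Foxa2 and notochord, node and gut, Dhh with Sertoli genes). Ihh shares its SCLC block with all 10 visceral endoderm genes, and Dhh stays low beside a high Gata4 row.

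Beyond the 9 genes, 47 others of the pathway were grouped by role, of which 45 were tested and Disp2 and Nkx2-2 were too low. Between tc;Sf1ESCs and tcESCs 5 were called, 3 higher and 2 lower, where 11.7% of all genes tested were called. These were Scube2 (1.28 ± 0.18, log2 and SE, adjusted p = 0.00202) and Scube3 (1.09 ± 0.23, adjusted p = 0.0119), which help to release the lipid-bearing ligand, the target Bmp4 (1.08 ± 0.20, adjusted p = 0.00671), Olig2, a target in the ventral neural tube (-3.31 ± 0.16, adjusted p = 5.09e-05), and Kif7, a ciliary regulator of GLI (-1.24 ± 0.24, adjusted p = 0.0088). The number called fell to 2 without tcESC library 1, tc;Sf1ESC library 1 or tc;Sf1ESC library 2, and to 3 without tcESC library 2. None of the 6 co-receptors and none of the 9 GLI kinases and turnover factors was called.

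In SCLCs, 13 of the 45 were higher and 5 lower than in tcESCs, and 14 higher and 6 lower than in tc;Sf1ESCs. Of all genes tested, 24.3% were higher and 18.3% lower in the first comparison (42.7% in all), and 24.1% and 18.1% in the second (42.2% in all). Of the 6 co-receptors and ligand-binding proteins, 3 were higher and 1 lower than in tcESCs. Lrp2, an endocytic receptor that works with cubilin and can also bind SHH, rose by 6.61 ± 0.24 (log2, SE, adjusted p = 8.45e-07), to 960 and 1461 CPM. Of the 10 target genes tested, 5 were higher and 3 lower. Foxa2, a target in the floor plate and a regulator of endoderm, rose by 7.42 ± 0.35, and the mesodermal targets Foxf1 and Foxf2 were at least 25.02-fold and at least 40.4-fold higher, computed against 3 counts per library. These 3 genes passed the filter of the 6-library fit only through the SCLC libraries, which fixed their direction against both ESC lines and so a part of the counts given here. Olig2 (-8.42 ± 0.25, adjusted p = 3.69e-07), the cyclin Ccnd1 (-4.92 ± 0.08, adjusted p = 5.04e-08) and Sfrp1 (-3.86 ± 0.26, adjusted p = 1.17e-05) were lower. Of 15 genes that act at the cilium, 2 were higher and none lower, and 1 of the 9 kinases and turnover factors was higher.

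Against tc;Sf1ESCs the same genes led, namely Foxa2 (7.58 ± 0.36), Lrp2 (7.45 ± 0.26), and Foxf2 and Foxf1 (at least 38.6-fold and at least 23.9-fold higher), with Ccnd1 (-5.27 ± 0.08), Olig2 (-5.11 ± 0.29) and Sfrp1 (-3.999 ± 0.26) lower.

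In todPGCLCs, 11 of the 45 were higher and 6 lower than in tcESCs, beside 18.1% and 11.2% of all genes tested. The co-receptors Gas1, Boc, Lrp2 and the glypican Gpc3 were all called higher, 4 of the 6 in that list, with Gpc3 at 3.17 ± 0.11 (log2, SE, adjusted p = 2.56e-07). Foxa2 (3.78 ± 0.62, adjusted p = 0.000768), Bmp4 (3.36 ± 0.17, adjusted p = 1.06e-06) and Nkx6-1 (2.47 ± 0.62, adjusted p = 0.00775) led the targets that rose, and Sfrp1 (-2.91 ± 0.23, adjusted p = 1.34e-05) and Ccnd1 (-2.23 ± 0.18, adjusted p = 1.29e-05) were lower. Olig2, at 2 and 4 counts against 2307 and 2844 in tcESCs, was also lower, as was Scube2 (-2.45 ± 0.25, adjusted p = 5.21e-05). Against tc;Sf1ESCs, 11 were higher and 5 lower, beside 19.4% and 13.3% of all genes tested, led by Foxa2 (3.93 ± 0.64), Lrp2 (3.14 ± 0.21), Foxf1 (at least 3.14-fold) and Gpc3 (2.44 ± 0.11), and by Olig2 (-6.40 ± 0.33), Scube2 (-3.74 ± 0.22), Sfrp1 (-3.04 ± 0.23) and Ccnd1 (-2.58 ± 0.18).

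Between SCLCs and todPGCLCs, 7 of the 45 were higher in SCLCs and 3 lower, 10 in all, where 38% of all genes tested were called. Scube2, with 71.6 and 91.1 CPM in SCLCs and 0.508 and 0.565 in todPGCLCs, was 7.37 ± 0.20 higher (log2, SE, adjusted p = 3.4e-08). Foxf2 (4.51 ± 0.41), Lrp2 (4.30 ± 0.20) and Foxa2 (3.64 ± 0.39) followed, where Foxf2 and Foxf1, both among the 7, passed the filter of the 8-library fit only through the SCLC libraries, and Bmp4 (-3.83 ± 0.17) and Ccnd1 (-2.70 ± 0.21) were lower in SCLCs. Scube2 and Ihh were thus high in the same group, and Scube2 was lowest in todPGCLCs, where Shh was the leading ligand in both libraries.

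**Figure D5:**
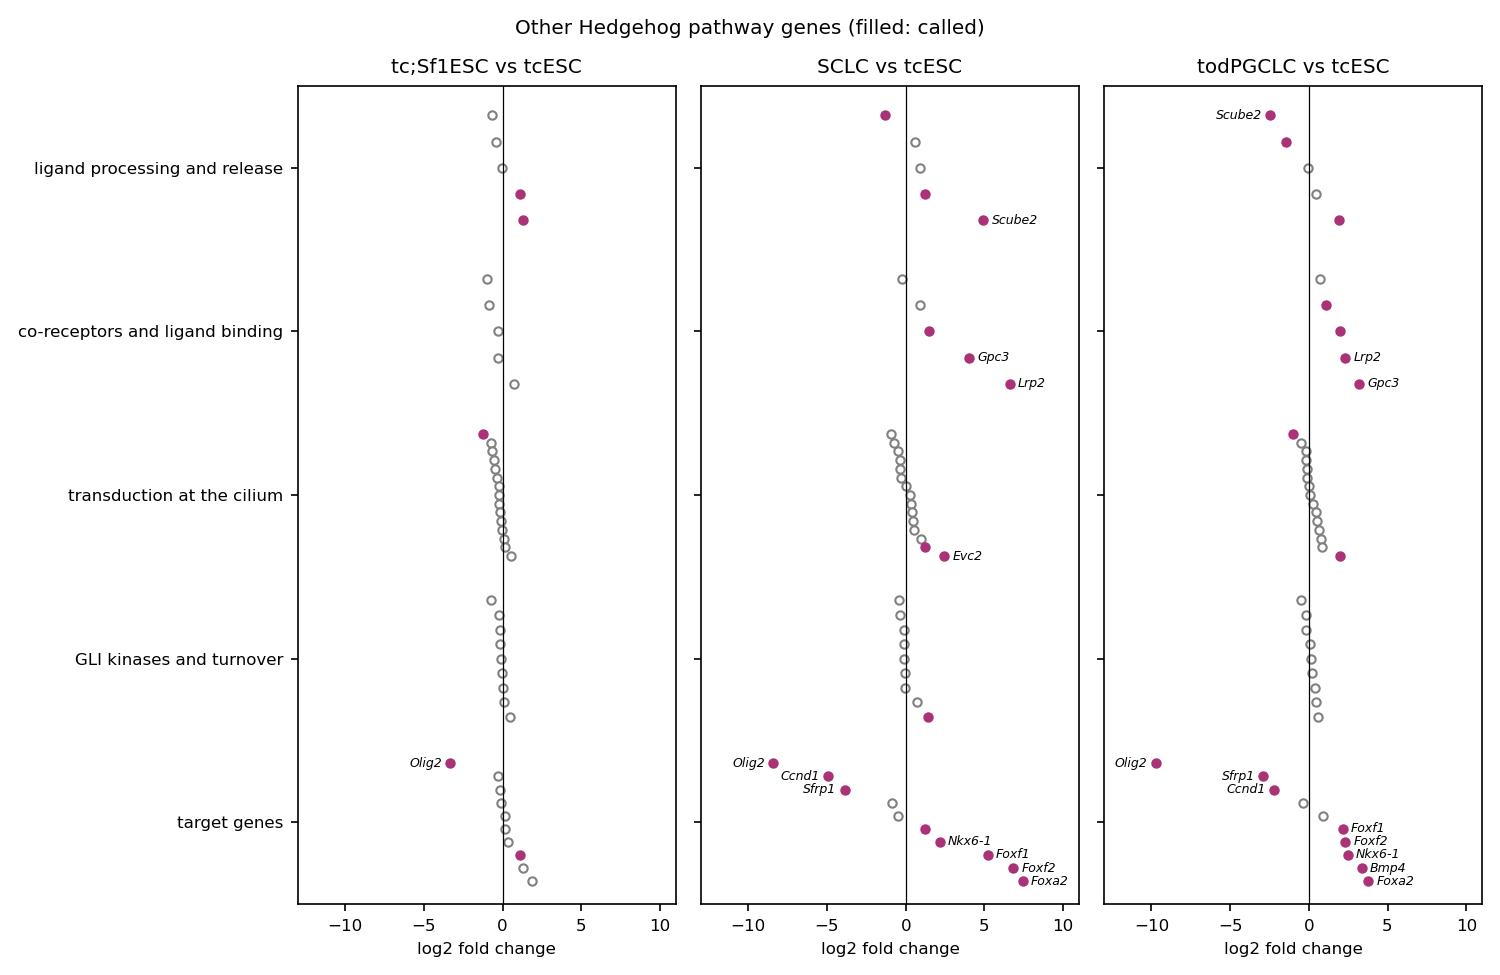
log2 fold changes (x axis) against tcESCs of 44 of the other pathway genes tested, grouped by role, with filled points for called genes and names for called genes beyond 4-fold. In tc;Sf1ESCs 5 are called, and in SCLCs and todPGCLCs most of the named genes are targets, on both sides of 0.

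Genes with a profile like that of a Hedgehog gene were sought by the root-mean-square difference of centred log2 CPM over the 8 libraries, among 14292 genes whose mean reached 1 CPM or more. For Ihh the nearest were Glipr1 (0.604), Prl2a1 (0.627) and Pcdhb13 (0.631). For Gli1 they were Eras (0.323), Clgn (0.411) and Sox3 (0.470), and for Ptch1 Gm13456 (0.0972), Rpl26 (0.107) and Sptb (0.128). For Dhh, which itself had under 1 CPM, Pzp (0.239), Ttc39c (0.298) and Slc2a5 (0.306) were nearest. The 8 points come from 4 groups of 2, so a likeness of this kind describes a pattern over 4 populations.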

How the data were processed

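Poly-A RNA libraries, strand-specific and sequenced as 50 bp pairs, were trimmed with Trim Galore and aligned by the authors to GRCm38 with STAR 2.4.0, per the labels and methods. The authors deposited raw read counts per Ensembl gene without normalization. HTSeq and Picard are also named in the submitters' processing notes. Between 35.6% and 41.6% of counted reads sat on lines that name no gene and were left out. Symbols and exon lengths came from GENCODE M21, which named 45229 of 46078 IDs. CPM and TPM were computed from the counts.

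Counts were tested in R 4.3.3 with edgeR 4.0.16 (TMM, quasi-likelihood, Benjamini-Hochberg) on genes with a mean count above 10, in 1 fit of the 6 tcESC, tc;Sf1ESC and SCLC libraries (16481 genes) and, for todPGCLC comparisons, of all 8 (16707 genes), with group as the only term. Calls needed more than a 2-fold difference and adjusted p below 0.05, as in the study's methods. The tests were checked on simulated counts. Alternatives were RLE size factors, no filter on low counts, DESeq2 1.42.0, all 8 libraries, a replicate block, and leaving out every library in turn. Named besides the 9 genes were, per comparison, up to 4 pathway genes called in each direction with the largest change and no overlap between groups, the 3 genes most like Dhh, Ihh, Gli1 and Ptch1, Nr5a1, and markers. Co-receptors and single marker genes were named after their values were seen. The values of 1 gene of the pathway lists are not reported here. The 9 genes and all lists were chosen with earlier results of these data known. Promoter windows are those of RefSeq.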

Additional observations from a re-analysis of the deposited data

How the results depend on the processing

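Under RLE size factors, no filter on low counts, DESeq2, the replicate block and, for the tc;Sf1ESC and SCLC comparisons, all 8 libraries, 221 of 225 recomputed log2 fold changes of the 9 genes kept their direction and call. The exceptions were Hhip in todPGCLCs against tcESCs and Dhh in SCLCs against todPGCLCs, both lost with DESeq2, Dhh in tc;Sf1ESCs against tcESCs, called without the filter (an alternative added after seeing the data), and Gli2 in todPGCLCs against tc;Sf1ESCs, which turned from 0.02 to -0.0057 under the replicate block. Among differences under 2-fold, adjusted p alone crossed 0.05 for Smo in todPGCLCs against tcESCs (0.046, and 0.0569 to 0.135 under RLE, no filter, DESeq2 and the block) and, without the filter, for Ptch1 between the ESC lines (0.184 to 0.00718) and Gli3 in todPGCLCs against tcESCs (0.0696 to 0.000878) and tc;Sf1ESCs (0.164 to 0.0146). That block uses a number only, since same-numbered libraries did not deviate together (correlations of -0.0261 to 0.0618 over 16707 genes). It changed no other call of the 9 genes. Of the other pathway genes called, it moved the count between the ESC lines from 5 to 7 and that in todPGCLCs against tc;Sf1ESCs from 16 to 17. All 54 counts of calls stayed within 1.5 times under these settings.

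With each library left out in turn, 163 of 185 log2 fold changes kept their call and direction, 11 lost a call, 3 gained 1 and 8 turned in sign, none of which was called. The values that turned ranged, over the libraries left out, from -0.35 to 0.16 for Ptch1 and from -1.31 to 0.0230 for Gli1 in SCLCs against tc;Sf1ESCs, from -0.0385 to 0.47 for Ptch1 and from -0.87 to 0.18 for Hhip in SCLCs against tcESCs, from -1.66 to 1.003 for Ihh in todPGCLCs against tcESCs, and, against tc;Sf1ESCs, from -2.01 to 0.65 for Ihh and from -0.29 to 0.29 for Gli2. The cause was not tested. In such fits the lone library of a group is assumed to vary like the other groups. Of 48 counts of calls, 44 stayed within 1.5 times. The other 4 were those of the pathway genes called between the ESC lines, 5 in the full data and 2 to 3 here. Depth limits low genes. Dhh, Shh outside todPGCLCs, Ihh outside SCLCs and Hhip in tc;Sf1ESCs and todPGCLC library 2 lay within 10-fold of the level of 3 counts (0.0978 to 0.118 CPM). Dhh could be refitted in only some of the leave-one-out sets of the 3 todPGCLC comparisons, never without a todPGCLC library, because its mean count fell under the filter, and no library was left out for Dhh or Shh in the tc;Sf1ESC and SCLC comparisons.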
